A study of Schizosaccharomyces pombe with 4 samples.

Results

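The centromeres of the fission yeast Schizosaccharomyces pombe supplied 315 of the 4012 windows in a deposited comparison of small RNAs between a wild-type strain (WT) and a strain labelled ABP1d. A window counted as centromeric if it overlapped chrI:3753730-3790207, chrII:1602773-1643182 or chrIII:1071113-1138250 by at least 1 base and touched no annotated tRNA gene or LTR (the long terminal repeat of a retrotransposon). Another 22 windows in these spans lay on a tRNA gene or LTR and were left out. Each strain had 2 libraries from cells in exponential growth in rich medium. ABP1 is a fission yeast homolog of CENP-B, a DNA-binding protein of mammalian centromeres, and the label gives no further detail on the ABP1d genotype or on alleles that both strains carry. The title of the study asks about the repression of cryptic transcription at Tf2 retrotransposons and rRNA gene repeats.

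A fission yeast centromere has a central core, where the histone H3 variant Cnp1 carries the kinetochore, between inner repeats that are inverted copies of each other and outer repeats built of elements known as dg and dh. The outer repeats are transcribed, Dicer cuts the double-stranded transcripts into small interfering RNAs, and an Argonaute complex loaded with these RNAs directs histone H3 lysine 9 methylation back to the repeats. Abp1 and its paralogs Cbh1 and Cbh2 bind DNA at centromeric repeats and at retrotransposon LTRs.

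The deposited values were RPKM (reads scaled to window length and to a read total of the strain), pooled over the libraries of a strain. RPKM times length gave whole reads in 100% of windows, with 23817270 as the ABP1d read total and 14466014 as that of WT. The depth per library is unknown. No difference could therefore be set against the spread between libraries, and each interval below is an exact 95% binomial interval that covers counting error only. Reads of a repeat were entered at every copy, so that copies are not independent measurements, and an interval on a sum over copies is too narrow. A ratio is the ABP1d value over the WT value at the deposited scaling. The 4 other scalings tried, set by large rRNA, 5S rRNA, snRNA or all windows, shift every ratio down by 0.66 to 2.09 on the log2 scale, while a ratio between 2 centromeric windows is the same under each of them.

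The sequences below, read from the RefSeq assembly ASM294v3, are those on which the results turn. Capitals mark the listed window or region and the lower-case letters the 10 bases on either side, on the forward strand. Mirror copies with equal reads matched after a shift of 2 bases in 126 of 129 pairs, so that window edges may lie 1 base below the coordinates given. The first is the densest region of the ABP1d list in the outer repeats, the next pair are short windows that were higher in ABP1d, and the last 3 are short windows that were lower.

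chrII:1604919-1605073, densest outer region: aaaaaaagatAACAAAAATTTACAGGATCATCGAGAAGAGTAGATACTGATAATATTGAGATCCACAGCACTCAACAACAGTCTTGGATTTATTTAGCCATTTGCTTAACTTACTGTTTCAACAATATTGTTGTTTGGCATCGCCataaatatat
chrI:3761028-3761092, higher, most copies: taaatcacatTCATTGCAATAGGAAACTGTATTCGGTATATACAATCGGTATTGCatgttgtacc
chrIII:1075842-1075963, higher, 7 copies: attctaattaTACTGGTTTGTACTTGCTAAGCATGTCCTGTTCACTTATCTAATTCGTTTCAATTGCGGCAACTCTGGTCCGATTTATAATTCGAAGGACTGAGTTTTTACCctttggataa
chrI:3764038-3764172, lower, 5 copies: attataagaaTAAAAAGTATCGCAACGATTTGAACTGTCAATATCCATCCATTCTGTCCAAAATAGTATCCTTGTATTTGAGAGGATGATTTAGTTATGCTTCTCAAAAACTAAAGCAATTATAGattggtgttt
chrI:3764310-3764430, lower, 5 copies: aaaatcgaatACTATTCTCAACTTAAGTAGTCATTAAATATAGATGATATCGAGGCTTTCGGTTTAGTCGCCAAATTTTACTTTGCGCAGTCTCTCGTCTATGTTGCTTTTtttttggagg
chrI:3759711-3759760, lower, 10 copies: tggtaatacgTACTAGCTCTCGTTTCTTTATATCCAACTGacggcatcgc

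The first question was which sections of a centromere carried small RNA. Borders were drawn from the reference sequence alone, by aligning each span with itself and with the other spans. The central core lay at chrI:3769078-3773195, chrII:1620807-1627609 and chrIII:1097071-1101923. No comparison window and no region of either strain's list fell in a core, so that neither strain showed a listed small RNA there; a window appears in the table only where the strains differed, and the cores may hold reads that were not listed. The inner repeats held 6 windows, which covered at most 0.871% of an inner repeat arm. The outer repeats held the other 309 windows, which covered between 50.1% and 69.1% of each arm.

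**Figure D1:**
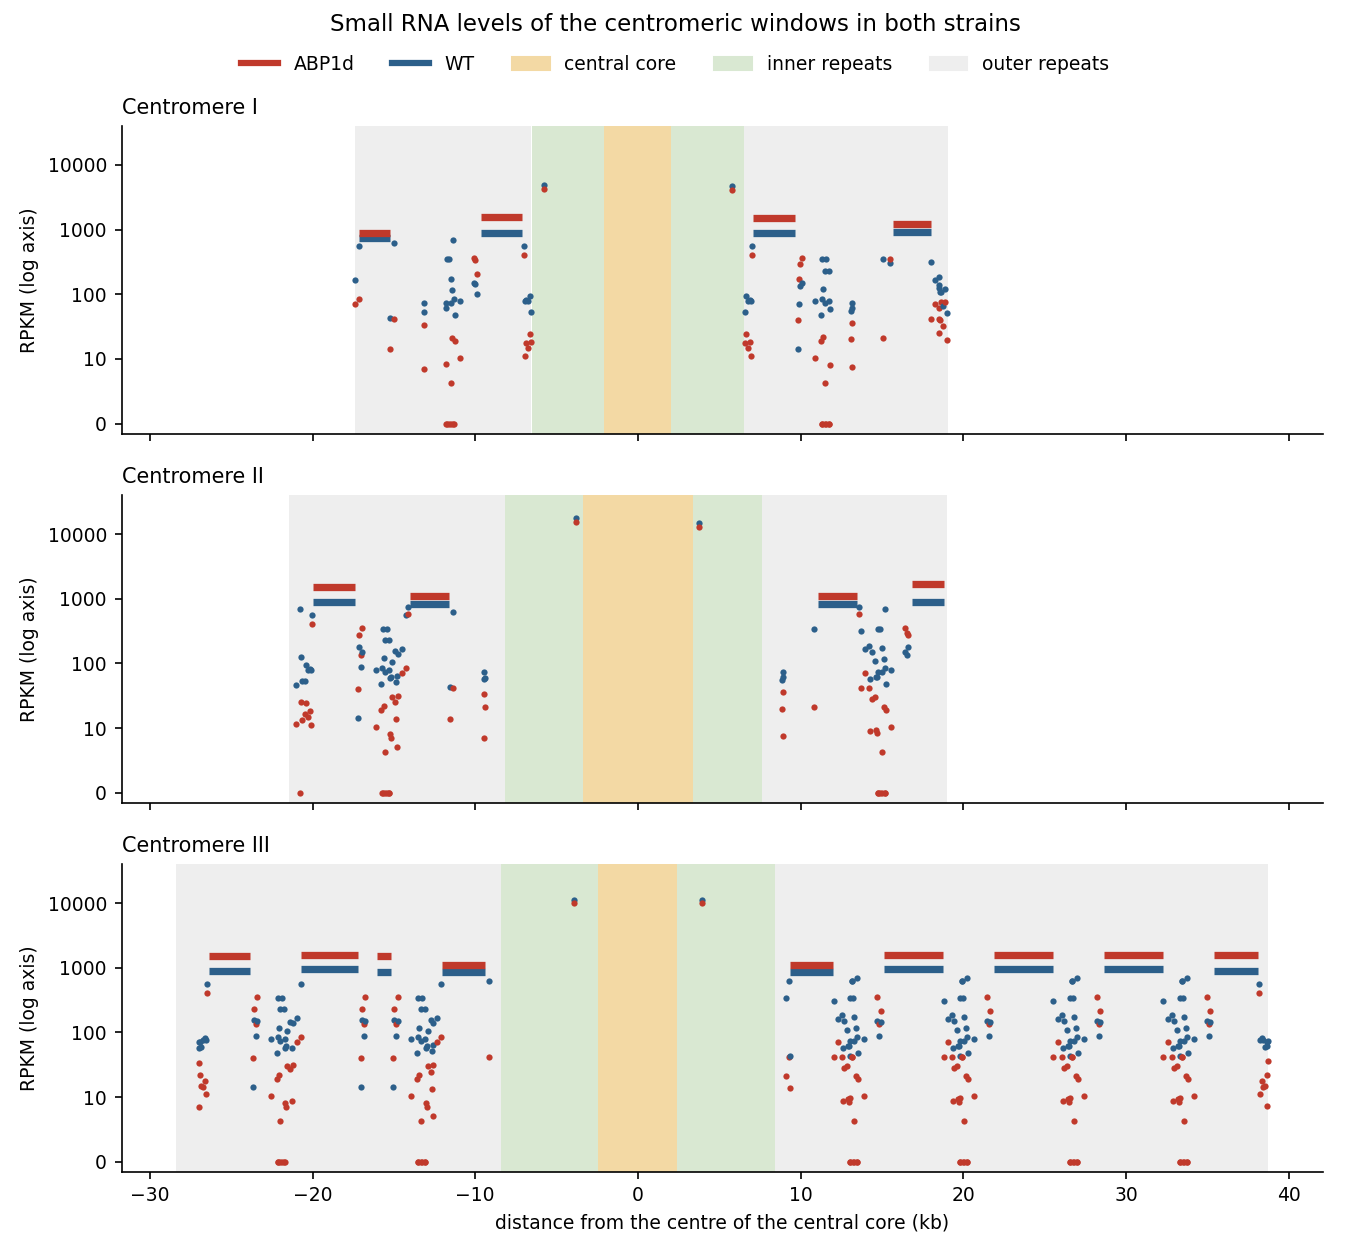
RPKM of each centromeric window (log axis, with 0 drawn on the lowest line) against the distance from the centre of the central core in kb, for the 3 centromeres, with ABP1d in red and WT in blue. Bars are windows of at least 500 bases drawn to scale and points are shorter windows; the cores are empty, the long outer windows are higher in ABP1d at the deposited scaling, and most short windows are lower.

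Of the 315 centromeric windows, 56 were higher in ABP1d and 259 lower. Over the whole table, 82.9% of windows were higher and 17.1% lower, so the centromeres went against the direction of the table in most of their windows. Outside the centromeric spans 88.4% of windows were higher. The 22 windows of the spans that lay on a tRNA gene or LTR were all higher. The centromeric reads nevertheless added up to more in ABP1d: the outer repeats summed to a ratio of 1.53 (1.52 to 1.53) at the deposited scaling and to 0.965 without the large rRNA windows in the totals. The 17 windows of at least 500 bases, all higher at the deposited scaling, held 94.6% of ABP1d centromeric reads and 89.7% of those of WT. Of the 9 windows of at least 1000 bases outside the spans, 44.4% were higher, against 16 of 16 inside. The 298 windows under 500 bases, 39 higher and 259 lower, held the remaining 5.44% and 10.3%. Of windows under 100 bases, 31 were higher and 237 lower in the centromeres, where 88.6% of windows that short were higher outside.

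The windows were to a large extent copies of each other. Windows were put into a sequence group where they and the 25 bases on either side matched within 10% of their length on either strand. This gave 67 groups, of which 49 had more than 1 copy and held 297 windows. There were 25 groups with a copy in all 3 centromeres, 11 in a pair of them and 31 in a single centromere. The largest group had 11 copies. In 28 of the 49 groups with several copies each copy had equal reads in each strain, and in 41 the copies differed by at most 3 reads. No group held copies of opposite direction. Counted by group, 15 were higher and 52 lower. Windows that share sequence but differ in extent beyond the 10% limit count as separate groups. Since all 4 other scalings shift ratios down, the lower groups stay lower under them by construction; the higher ones numbered 7 without the large rRNA windows, 2 centred on 5S rRNA windows, and 0 centred on snRNA windows or on all windows.

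**Figure D2:**
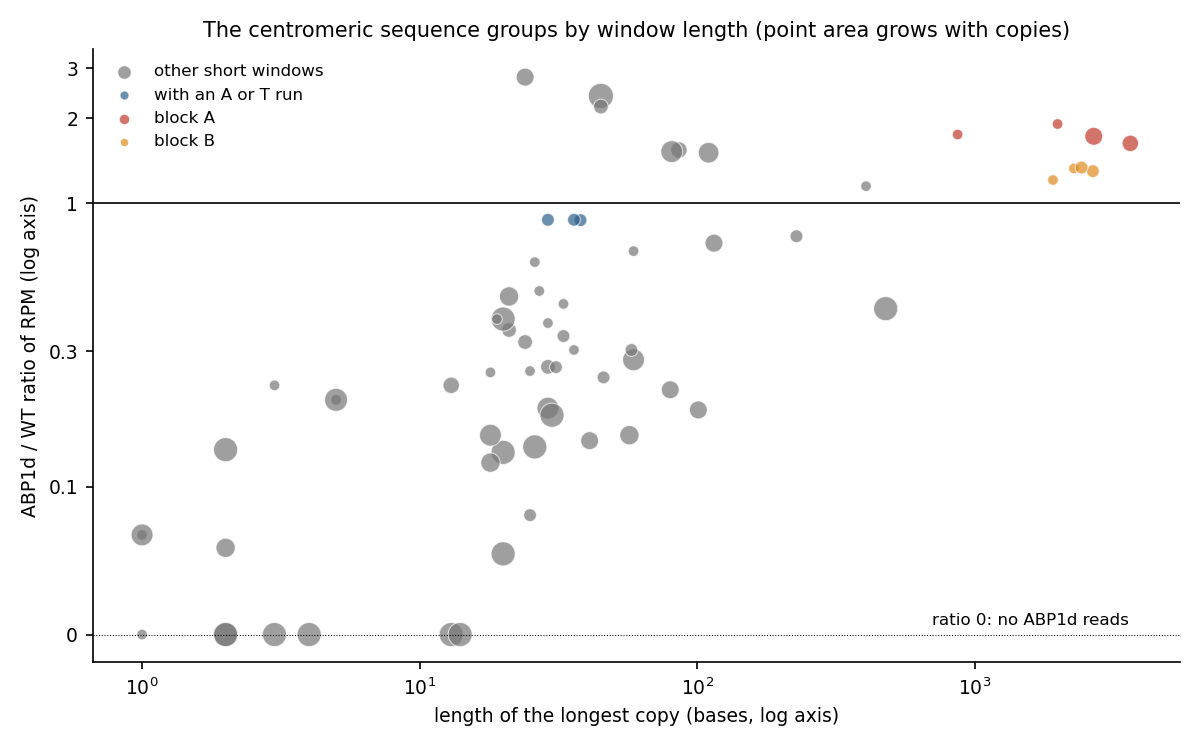
ABP1d to WT ratio of reads per strain total (log axis, deposited scaling) against window length in bases (log axis) for the 67 sequence groups, each shown by its copy with the most reads. Point area grows with the number of copies; blocks A and B lie above 1, the A/T runs just below 1, and short windows from no ABP1d reads to a ratio of 2.79.

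The long windows fell into a pair of sequence types, called block A and block B here because the annotation has no dg or dh feature. Block A is the type of chrI:3761484-3764035, next to the inner repeat of the left arm of centromere I, and block B the type of chrI:3753987-3755901, at the outer end of that arm. In the left arm of centromere I the block A window had 1546 RPKM in ABP1d and 891 in WT, and its mirror copy in the right arm, chrI:3778239-3780791, had 1519 and 884. The copy in the left arm of centromere II, chrII:1604253-1606831, had 1533 and 888 RPKM. The outermost copies of centromere III, chrIII:1073105-1075675 and chrIII:1134921-1137607, had 1548 and 903 RPKM in the left arm and 1561 and 904 in the right. These 5 copies stayed within 1519 to 1561 RPKM in ABP1d and 884 to 904 in WT; as copies they share reads. Their ratios ran from 1.71 to 1.74 while their sequences shared 93.6% to 99.1% of bases.

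Other windows of block A differed in length. In centromere III, 4 windows of 3523 to 3639 bases ran on from block A into 878 bases like those of block B and are called joined windows here. They had 1570 to 1582 RPKM in ABP1d and 970 to 971 in WT. Their ratios were 1.62 to 1.63, and the 3 right-arm windows, chrIII:1114641-1118279, chrIII:1121401-1125039 and chrIII:1128161-1131799, had the same 137130 reads in ABP1d and 51088 in WT. The 868-base window chrIII:1083441-1084308 had 1520 RPKM in ABP1d and 867 in WT. The highest block A ratio was that of chrII:1641053-1643042 at the outer end of centromere II, with 1705 RPKM in ABP1d against 893 in WT and a ratio of 1.91 (1.88 to 1.94). Its ABP1d level stood above that of each other block A window, and its WT level did not.

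Block B had lower ratios. Its windows in centromere II, chrII:1610181-1612608 and chrII:1635276-1637703, had 1098 RPKM in ABP1d and 820 in WT in either arm. In centromere III, chrIII:1087427-1090093 and chrIII:1108853-1111519 had 1101 RPKM in ABP1d and 847 in WT in either arm. The arms of centromere I differed from each other: chrI:3753987-3755901 on the left had 888 RPKM in ABP1d and 734 in WT, and chrI:3786846-3789122 on the right had 1240 and 933. The left window had a ratio of 1.21 (1.19 to 1.23) and the right 1.33 (1.31 to 1.35), so that the intervals did not overlap. The right window also held 351 bases like those of block A, and the left window held 0. Summed, the 10 block A windows of at least 1000 bases had a ratio of 1.69, or 1.75 with the 4 joined windows left out, and the 6 block B windows 1.31 at the deposited scaling; without the large rRNA windows block A stood at 1.07 and block B at 0.827, and both were below 1 under the 3 other scalings.

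The contrast between the blocks does not depend on the scaling. Each block A window of at least 1000 bases that was not joined was set against both block B windows of its centromere. Within centromere I, the ratio of chrI:3761484-3764035 was 1.31 times that of the right block B window (1.28 to 1.33) and 1.43 times that of the left (1.41 to 1.47). Within centromere II the factor was 1.29 for chrII:1604253-1606831 against the left-arm block B window (1.27 to 1.31) and 1.43 for chrII:1641053-1643042 (1.40 to 1.45). Within centromere III it was 1.32 for chrIII:1073105-1075675 against chrIII:1087427-1090093 (1.29 to 1.34), and the 4 pairs there gave 1.32 to 1.33. The joined windows, which hold sequence of both types, gave 1.24 to 1.25. Block B windows could also hold bases like those of block A. There were 351 in chrI:3786846-3789122, 359 or 362 in the windows of centromere II and 362 in chrIII:1087427-1090093. The left window of centromere I held 0. Whether this bears on the factors was not tested. In each centromere the ABP1d reads were thus more weighted to block A than the WT reads. Reads of a repeat were entered at every copy, so the centromeres are not independent measurements of this. Block A held 69.0% of the ABP1d reads in centromeric windows and 61.1% of the WT reads with the joined windows counted in it, and 34.9% and 29.8% without them; block B held 23.5% and 26.9%.

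The short windows next to block A differed between its sides. Every copy was turned to the orientation of the left arm of centromere I, where the first side faces away from the inner repeat and the second side faces it. Within 1500 bases of the first side lay 7 groups, 6 of them higher in ABP1d at the deposited scaling. The higher groups include an 86-base and a 102- to 110-base window that share sequence, so they are not all distinct sequences. On the second side of the windows that were not joined lay 20 groups, of which 16 were lower and 4 higher. All 4 were groups that also lie on the first side, each with 1 copy here, in the stretch of centromere III between chrIII:1078794-1082316 and chrIII:1083441-1084308. The joined windows end in block B sequence on that side. The 19 groups there were all lower, all 19 also lie on the first side of block B, and 0 of the 20 groups do.

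**Figure D3:**
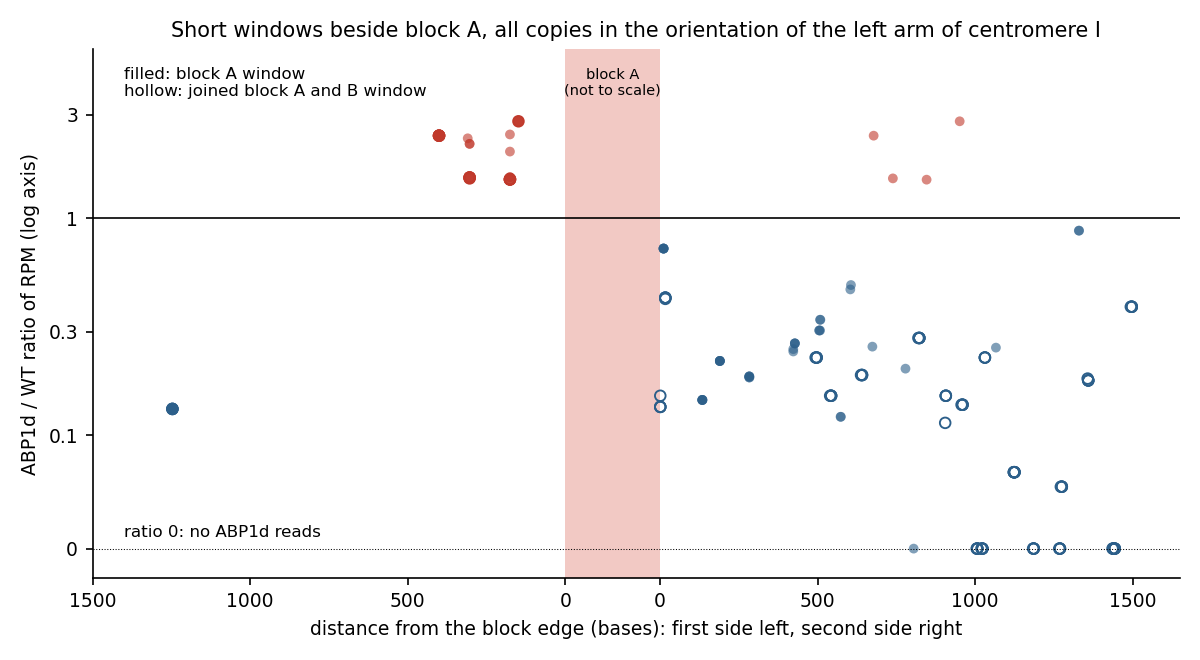
ABP1d to WT ratio (log axis, deposited scaling) of windows under 500 bases within 1500 bases of a block A window, against the distance from the block edge in bases, all copies in one orientation. Red points are above 1 and blue below; hollow points lie beside the 4 joined windows, whose second side is block B sequence. Points of equal copies overlie each other and look darker, and the block itself is not drawn to scale.

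On the first side, the 45-base window shown above as that with most copies had 383 reads in ABP1d and 97 in WT at each of its 11 copies, in all 3 centromeres. That is 357 RPKM against 149, a ratio of 2.40 (1.91 to 3.03). With chrI:3761484-3764035 standing for block A here and below, the block's ratio was 0.724 times that of this window (0.579 to 0.905). It was above 1 without the large rRNA windows (1.52) and at 1.01 centred on 5S rRNA windows, and below 1 under the other 2 scalings. Next to it, an 81-base window with 8 copies in centromeres II and III had 261 reads against 103 or 104, a ratio of 1.52 to 1.54. The 102- to 110-base window of centromere III had 567 to 572 reads against 229 or 230 at its 7 copies, 1.50 to 1.51. Both of these ratios fell below 1 without the large rRNA windows in the totals. A 24-base window with 5 copies had 23 reads against 5, a ratio of 2.79 whose interval (1.04 to 9.41) reached close to 1.

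The copies of an 86-base window differed in ratio. It stood 176 bases from block A at 4 places. The 102-base window of centromere III printed above stands at the same distance. After a shift of 2 bases it begins with the centromere II sequence below, on the other strand. Its group has 7 copies with ratios of 1.50 to 1.51 and was counted apart because its windows extend farther. In the left arm of centromere I it had 417 ABP1d and 125 WT reads, or 2.03-fold (1.66 to 2.49). In the right arm it had 352 and 88 reads, 2.43 (1.92 to 3.10), the highest ratio among centromeric windows with at least 100 reads in both strains together. In both arms of centromere II it had 562 and 221 reads, 1.54 (1.32 to 1.81). The interval of the right arm of centromere I did not overlap that of centromere II. The copies are printed in one orientation to show how little they differ; capitals mark the 2 bases at which each differs from the left arm of centromere I, and the sequence of the right arm of centromere II equals that of the left arm.

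centromere I left, chrI:3761222-3761307, forward strand: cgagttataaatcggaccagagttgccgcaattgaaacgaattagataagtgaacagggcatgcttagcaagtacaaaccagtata
centromere I right, chrI:3780966-3781051, reverse strand: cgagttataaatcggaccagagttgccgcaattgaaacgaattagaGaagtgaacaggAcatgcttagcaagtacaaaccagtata
centromere II left, chrII:1607006-1607091, reverse strand: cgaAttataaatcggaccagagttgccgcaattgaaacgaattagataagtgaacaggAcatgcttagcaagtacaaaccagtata

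On the second side of the windows that were not joined, the 115-base window that begins 11 or 12 bases from the block had 1099 reads in ABP1d and 922 in WT at each of 5 copies, 401 RPKM against 554. Its ratio was 0.724 (0.663 to 0.791), and that of block A was 2.40 times as large (2.19 to 2.62). Farther out, a 41-base window had 11 reads against 46, a ratio of 0.145 (0.0678 to 0.285). A 79- to 80-base window had 34 reads against 94, 0.220 (0.144 to 0.328). The 100- to 101-base window printed above had 34 or 35 reads against 112 to 114, and the copy with most reads a ratio of 0.186 (0.124 to 0.274). A 29-base window had 17 reads against 39, 0.265 (0.140 to 0.479). In the left arm of centromere I these windows follow each other over chrI:3764048-3764492, and each of them was higher in WT.

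A lower group of 10 copies, a window of 475 to 478 bases, stood 17 to 248 bases from block B at 6 places and 17 bases from a joined window of centromere III at 4. It had 800 to 804 reads in ABP1d and 1130 to 1149 in WT at its copies, in all 3 centromeres. At chrI:3753495-3753969 that was 71.0 RPKM against 167, a ratio of 0.424 (0.387 to 0.465). Block A had a ratio 4.08 times that of this group (3.73 to 4.47). A 228-base window of centromere II, chrII:1609950-1610177 and a copy in the right arm, had 3123 or 3124 reads against 2478, 0.766 (0.726 to 0.807) in the left arm. The only window from 100 to under 500 bases besides those on the first side of block A that was higher was chrI:3786432-3786837, with 3337 reads against 1761, a ratio of 1.15 (1.09 to 1.22) that fell below 1 under each of the 4 other scalings.

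Between the blocks lay short windows with few reads. The 30-base window printed last had 15 reads in ABP1d and 50 or 51 in WT at 10 copies, 0.179 (0.0933 to 0.323). A 20-base window, also with 10 copies, had 5 reads against 23, 0.132 (0.0392 to 0.355). There were 61 windows in 7 groups with no ABP1d read, of 1 to 14 bases, with 10 to 16 WT reads. The best covered of these, chrI:3759805-3759817, had 0 reads against 16, and the interval put WT at least 6.35-fold higher. Windows were listed only where the strains differed, so this bound is no separate support for a difference. Windows under 30 reads made up 171 of the 315, and 166 of them were lower. Few reads limit what a window can show. For a fold across the whole table, 0 reads were set to 3. The smallest fold between the strains was then 2.02 among windows under 30 reads, a value that depends on this floor. It was 1.12 among those with at least 1000 reads. Among windows with at least 100 reads in both strains together, 51 centromeric windows were higher and 43 lower, or 14 groups against 11. Outside the spans, 79.4% of windows with that many reads were higher and 20.6% lower.

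The 5 lowest ratios among groups with at least 100 reads, copies counted 1 time each, were those of the 100- to 101-base, 79- to 80-base and 475- to 478-base windows above and of 2 others. One of these was the 58- to 59-base window of centromeres II and III, with 42 reads against 91 at 8 copies, 0.280 (0.190 to 0.408). The other was chrI:3789636-3789668, with 48 reads against 66, 0.442 (0.298 to 0.650). That window lies in IRC1-R, the transcript at the right boundary repeat of centromere I. IRC1-R overlapped 7 windows, all of them lower, and IRC1-L at the left boundary overlapped 1, which was also lower. All were under 500 bases, and 259 of the 298 centromeric windows that short were lower. Noncoding transcripts are annotated densely here: 78 of the 113 in the spans overlapped a centromeric window, and 299 of the 315 windows lay on at least 1. The transcript nam5 at centromere I had 1 higher and 2 lower windows, and nam6 at centromere II 1 higher and 3 lower; in both cases the higher window was the block B window.

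The inner repeats gave a separate kind of window. All 6 were 28 to 38 bases long and contained 15 or more A, or as many T, in a row, shown in capitals here for the left arm of each centromere on the forward strand.

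chrI:3765366-3765393: tAAAAAAAAAAAAAAAAAAgagattact
chrII:1620406-1620443: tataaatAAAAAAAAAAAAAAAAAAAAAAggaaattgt
chrIII:1095543-1095578: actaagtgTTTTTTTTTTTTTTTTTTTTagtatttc

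In centromere II the left window had 15594 RPKM in ABP1d and 17862 in WT, the highest values of any centromeric window, and the right window, chrII:1627974-1628010, had 12825 and 14687. In centromere III both windows had 9932 RPKM in ABP1d and 11341 in WT. In centromere I the left window had 4289 and 4898 RPKM. The 6 ratios lay between 0.873 and 0.876, close together despite a wide range of levels. No outer window held such a run. Among windows elsewhere in the genome with an A/T run and at least 1000 reads, 187 in all, ratios lay between 0.846 and 0.892 with a median of 0.872. The ratios of the inner repeat windows lay inside that range. Block A had a ratio 1.98 to 1.99 times that of these windows.

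The 3 centromeres were then set against each other. Centromere I held 68 windows, 12 of them higher, centromere II 71 with 11 higher, and centromere III 176 with 33 higher. Summed ratios were 1.46 for centromere I, 1.43 for centromere II and 1.53 for centromere III at the deposited scaling; without the large rRNA windows they were 0.926, 0.902 and 0.966. The order depended on what was counted. With the A/T-run windows left out, centromere II stood at 1.50 and centromere I at 1.48, and with 1 copy per sequence group at 1.52 and 1.41. Centromere III had the highest value in these settings, at 1.55 and 1.53. Block A by centromere gave 1.73 in I, 1.81 in II and 1.65 in III, or 1.72 in III with the joined windows left out. Block B gave 1.28, 1.34 and 1.30. Centromere III held 59.2% of the ABP1d reads in centromeric windows and 57.9% of the WT reads, with 6 of the 10 block A windows of at least 1000 bases. Reads of a repeat were entered at every copy, so these shares grow with the number of copies. They do not show how much small RNA came from centromere III.

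The list of each strain showed where abundant small RNAs were entered. Here RPKM is compared within a strain, since the lists have different lower limits. The ABP1d list held 42 centromeric regions in 14 sequence groups over 39470 bases, and the WT list 18 regions in 9 groups over 43506 bases. All 18 WT regions overlapped an ABP1d region, and 39 of the 42 in the ABP1d list had an overlap the other way. The shared 39401 bases were 99.8% of the ABP1d and 90.6% of the WT bases. The 3 ABP1d regions without a WT overlap were A/T-run regions of the inner repeats. The most abundant regions were also of that kind, with 24690 RPKM at chrII:1620413-1620436 in ABP1d and 17862 at chrII:1620406-1620443 in WT. Whether reads on such runs came from the inner repeats was not tested.

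In WT the list held 1 region with 1 value for each block window, so that levels within it cannot be read. WT regions of the outer repeats lay between 806 and 974 RPKM, with the highest at chrIII:1078796-1082306. In ABP1d a block A window was split into 3 or 4 regions, apart from the 868-base window, which held 1. Each of the 10 block A windows of at least 1000 bases held the same 567-base piece, at 1852 to 1861 RPKM. In the left arm of centromere I it lay at chrI:3762660-3763226, between pieces of 1576 and 1389 RPKM. In the left arm of centromere II it was followed at lower coordinates by the 135-base region printed first, chrII:1604929-1605063, at 4231 RPKM and 13605 reads. Beyond that came chrII:1604259-1604880, at 920 RPKM, the lowest ABP1d region of the centromeres. At the right arm of centromere II a 217-base region, chrII:1642821-1643037, had 2966 RPKM. All 9 other block A windows of at least 1000 bases hold the 135-base sequence with 1 base different, and in them the list gave at most 2966 RPKM over it. This contrast depends on where the list divides the reads. Over the 805 bases of chrII:1604259-1605063, the 135-base region and its neighbour together had 27238 reads or 1421 RPKM. The 4 regions within 5% of that length in other block A windows of at least 1000 bases had 1389 to 1508. The 839-base region of the 868-base window had 1572.

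**Figure D4:**
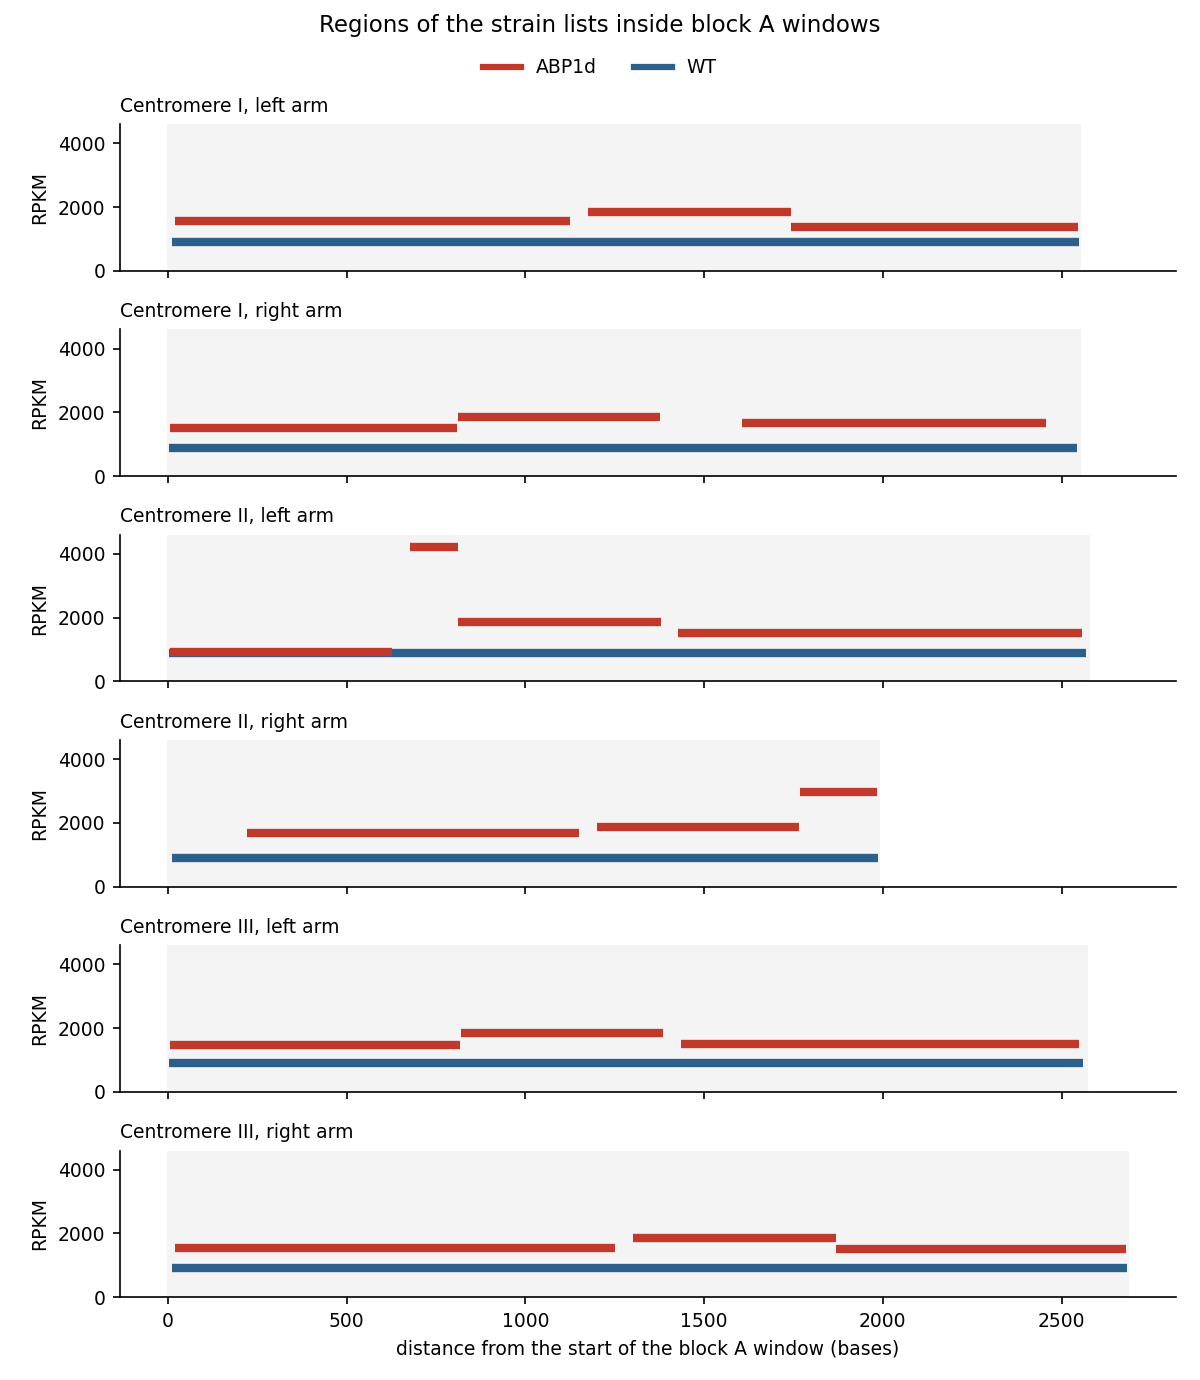
Regions of the ABP1d list (red) and of the WT list (blue) inside the 6 block A windows of 1990 to 2687 bases, drawn by their RPKM against the distance in bases from the window start. WT has 1 region and 1 value per window, and ABP1d has 3 or 4 regions with a 567-base piece at 1852 to 1861 RPKM and, in centromere II, a piece at 4231 and another at 2966.

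Genes whose products act at centromeres were searched for windows of their own. The share of all annotated genes with a window is not given here, so the counts cannot be called few or many. None of the 13 genes of the RNA interference list overlapped a window, nor did the 3 CENP-B homologs or the 9 genes of kinetochore chromatin. Of the heterochromatin list, 13 of 14 genes were found in the annotation and 2 had a window. Both had under 100 reads and are named here with their values known: swi6, which codes for a protein that binds methylated histone H3, had 50 reads in ABP1d and 10 in WT, and its paralog chp2 had 12 and 0. These are small RNA reads over a gene and not messenger levels. With no window on the abp1 gene, the ABP1d label could not be checked here.

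Sequence related to the outer repeats lies also at the silent mating-type locus, in an element called cenH. The files give this region as a contig of its own, with 37 windows, 4 higher and 33 lower in ABP1d. Of all windows in the comparison, 17.1% were lower, and of the 315 centromeric windows 259 were. Of the 37 windows on the contig, 12 were equal in length and in the reads of both strains to a centromeric window, 5 of them with at least 10 bases. Among the latter, 59 bases with 42 and 91 reads matched the 58- to 59-base centromeric window in both counts. For these windows the files give equal read counts at both loci, and their sequences were not compared. Equal counts need not mean shared reads: a 2-base window with 0 and 10 reads was equal to windows of more than 1 sequence group. Whether the lower windows of this contig are measurements separate from those of the centromeres was not tested.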

How the data were processed

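Small RNA libraries, 2 per strain, were analysed. Total RNA was extracted with acid phenol and adapter-ligated with an Illumina small RNA kit, per the labels' protocols. The submitters' processing notes name Bowtie 0.12.5. Not given in the sources used here were the genome build, the treatment of reads with several matches, the window caller and the test.

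The authors deposited 3 files without headers: for each strain a list of regions with RPKM and p-value, and for the comparison a table of windows with RPKM per strain and a p-value. As deposited, RPKM values are pooled over the libraries of a strain. In the authors' deposited table, p-values reach 0.0494 over all windows, so an unlisted place is not an absent one; among centromeric windows they reach 0.0401, and 36 are listed as 0. The planned count test per library could not be used on pooled RPKM. Reads were recovered as RPKM times length over the step of a strain and were whole in 100% of values, to within 1e-06. Ratios are reads over strain totals, with exact 95% binomial intervals; against 0 reads, the bound of the interval is given. Ratios of ratios have Woolf 95% intervals.

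File starts were taken as 0-based and converted to 1-based positions on ASM294v3. The last listed window of chromosome III ends at 2452892, past the 2452883 bases of that assembly, so the authors' build may differ. Copies with equal reads matched in sequence in 360 of 360 pairs, and in 3 after a shift of 100 bases.

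Spans were aligned with BLAST 2.17.0. The core lies between the innermost inverted repeats of at least 1000 bases and 95% identity, the inner repeats reach to the first base matching another centromere, and the rest is outer; matches that overlap the core were ignored. Windows took the section with most of their bases.

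Members, gene lists and the rules for named windows (5 lowest and 5 highest ratios from 100 reads, most reads per section, annotated transcripts, densest list regions) were chosen with earlier results of these data known. Sequence groups, the A and B types and the sides of blocks were chosen after seeing the data. Where copies shared values, 1 copy, that with the most reads, was named. Steps were tested on simulated data. Python 3.11.15, pandas 2.3.3 and scipy 1.17.1 were used.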

Additional observations from a re-analysis of the deposited data

How the results depend on the processing

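No paired analysis was possible because the files hold 1 pooled value per strain; for the same reason no library could be left out. The scaling decides the direction of the summed ratios. Without the large rRNA windows in the totals, ratios were 0.553 for inner repeats, 0.965 for outer repeats, 0.926, 0.902 and 0.966 for centromeres I, II and III, 1.07 for block A and 0.827 for block B, with 32 windows higher. Centred on 5S rRNA windows they were, in the same order, 0.367, 0.641, 0.615, 0.599, 0.642, 0.709 and 0.549, with 17 higher. Centred on snRNA windows they were 0.225, 0.393, 0.377, 0.367, 0.393, 0.434 and 0.336, with 0 higher. Centred on all windows they were 0.206, 0.359, 0.344, 0.335, 0.359, 0.397 and 0.308, with 0 higher. What sets the right scaling was not tested.

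With windows of equal reads and length entered 1 time, outer repeats stood at 1.54 and block A at 1.71, with 27 windows higher and 73 lower. Without A/T-run windows, centromeres I, II and III stood at 1.48, 1.50 and 1.55. From 100 reads, outer repeats and centromere III stood at 1.54 each, with 51 windows higher and 43 lower. With 1 copy per sequence group, an alternative chosen after seeing the data, outer repeats stood at 1.50, centromere I at 1.41, centromere II at 1.52 and block A at 1.72, with 15 groups higher and 52 lower. With the joined windows left out, also chosen after seeing the data, block A stood at 1.75. These sums moved by more than their counting intervals and none of the sums changed direction. The window counts did change from 100 reads, where most windows were higher and not lower. The cause was not tested. Section borders at tRNA genes or from repeats of 90% identity, and a stricter overlap with the span, left every value inside its interval. Depth limits the short windows: 171 of 315 had under 30 reads.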
